A study of Mus musculus with 2 samples.

Results

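The Rab genes were described on 2 one-colour arrays, 1 of SoNar-high and 1 of SoNar-low cells from mice with a leukaemia of B-cell precursors, B-cell acute lymphoblastic leukaemia (B-ALL). Members were the genes whose array accession led to a current symbol made of "Rab", a number and at most 1 further letter and digit. Of 59 such symbols in the RefSeq gene table, 57 had a probe on the array, among 20618 named genes with one, and 2 (Rab36 and Rab44) had none under this mapping. The 57 genes were covered by 80 probes, and 78 remained after spots with outlier flags were left out. Both populations came from the bone marrow of mice with B-ALL given as 8 weeks of age, and were separated by sorting on how brightly SoNar shone under violet relative to blue light. SoNar is a genetically encoded sensor of the cytosolic NADH/NAD+ balance, so the cells of both groups carried it. The sample titles name the same arrays N-myc-high and N-myc-low. Strain, sex, the number of mice and how the leukaemia was started are not given in the sources used here.

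Rab proteins are small GTPases that give membranes of the secretory and endocytic routes their identity. A Rab is active while it holds GTP: exchange factors load it, GTPase-activating proteins switch it off, and the active form recruits motors, tethers and other effectors. Prenyl groups anchor it in the membrane, and GDP dissociation inhibitors carry the inactive form through the cytosol. Many Rabs come as close paralogues, of which one is found in most cells and another mainly in neurons or secretory cells. In B cells these routes carry the antigen receptor to and from the surface and feed antigen into lysosomal compartments.

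Each population was hybridised once, so none of the differences has a replicate check and no test between the populations was possible. Differences are log2 SoNar-high minus SoNar-low values after each array was divided by its 75th percentile signal (409 and 470 intensity units in that order). Equal signals on both arrays therefore give a difference of 0.20. A probe is called detected where the scanner software found it well above background. A gene's difference is the mean over its measured probes, those detected on both arrays, and a gene is called by size alone, at 2-fold. The only error the arrays give is between spots and between probes. Across 183 probes printed as 10 spots, a difference between single spots had a median SD of 0.14. Probes of one gene differed more, with a median SD of 0.32 over 2394 genes with several measured probes and of 0.31 over the 10 Rab genes that had several. The other 29 measured Rab genes rested on 1 probe each. Of all spots, 44.8% were detected on the SoNar-high array and 72.9% on the SoNar-low array. Of the B-lineage markers listed, 11 of 16 were measured on both arrays, with a median of 0.31, 9 of them above 0 and a range from -1.10 (Cd22) to 0.98 (Ebf1), while Rag1, Rag2, Il7r and Igll1 were detected on neither. RNA of a sorted population does not tell fewer cells of a type from less RNA per cell.

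Most of the Rab family was present on both arrays, with small differences. Of the 57 genes, 39 were measured on both arrays (68.4%, against 51.0% of all named genes). Another 12 were detected in SoNar-low cells alone (21.1%, against 26.4%). Detected in SoNar-high cells alone were 0, against 11 of all 20618 named genes, and 6 were detected in neither, against 4631. The 39 measured genes had a median difference of 0.34, beside a median of 0.22 over all 10521 measured genes. Above 0 lay 29 of them (74.4%, against 66.9% of all genes), and 22 lay above the median gene. At least 2-fold higher on the SoNar-high array were Rab6b and Rab1a, which is 2 of 39 or 5.13%, against 2.40% of all genes. At least 2-fold lower were 0 of 39, against 4.39% of all genes. The quartiles of the Rab genes were 0.02 and 0.58, and those of all genes -0.15 and 0.52. Within 0.5 of the median gene lay 29 of the 39 (74.4%, against 69.7% of all genes). The counts past 2-fold are small and moved with the scaling. Median scaling, which placed the median gene at 0.79, put 16 Rab genes and 32.1% of all genes past 2-fold higher. Scaling to probes detected on both arrays, which placed the median gene at -0.07, put 1 Rab gene and 0.58% of all genes there. The median Rab gene stood 0.10 to 0.15 above the median gene under all 12 settings compared. Scalings that shift all genes equally, such as median scaling and centring on the median gene, could not change this distance (0.12). The sign of a small difference depended on the setting: 19 of the 39 genes turned sign under at least 1 alternative, among them all 10 below 0, and 20, all above 0, kept it under each that measured them. Median scaling raised every gene by 0.57, so all 10 had to turn, the lowest standing at -0.42. The imbalance between both signs therefore does not show that values above 0 are firmer.

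**Figure D1:**
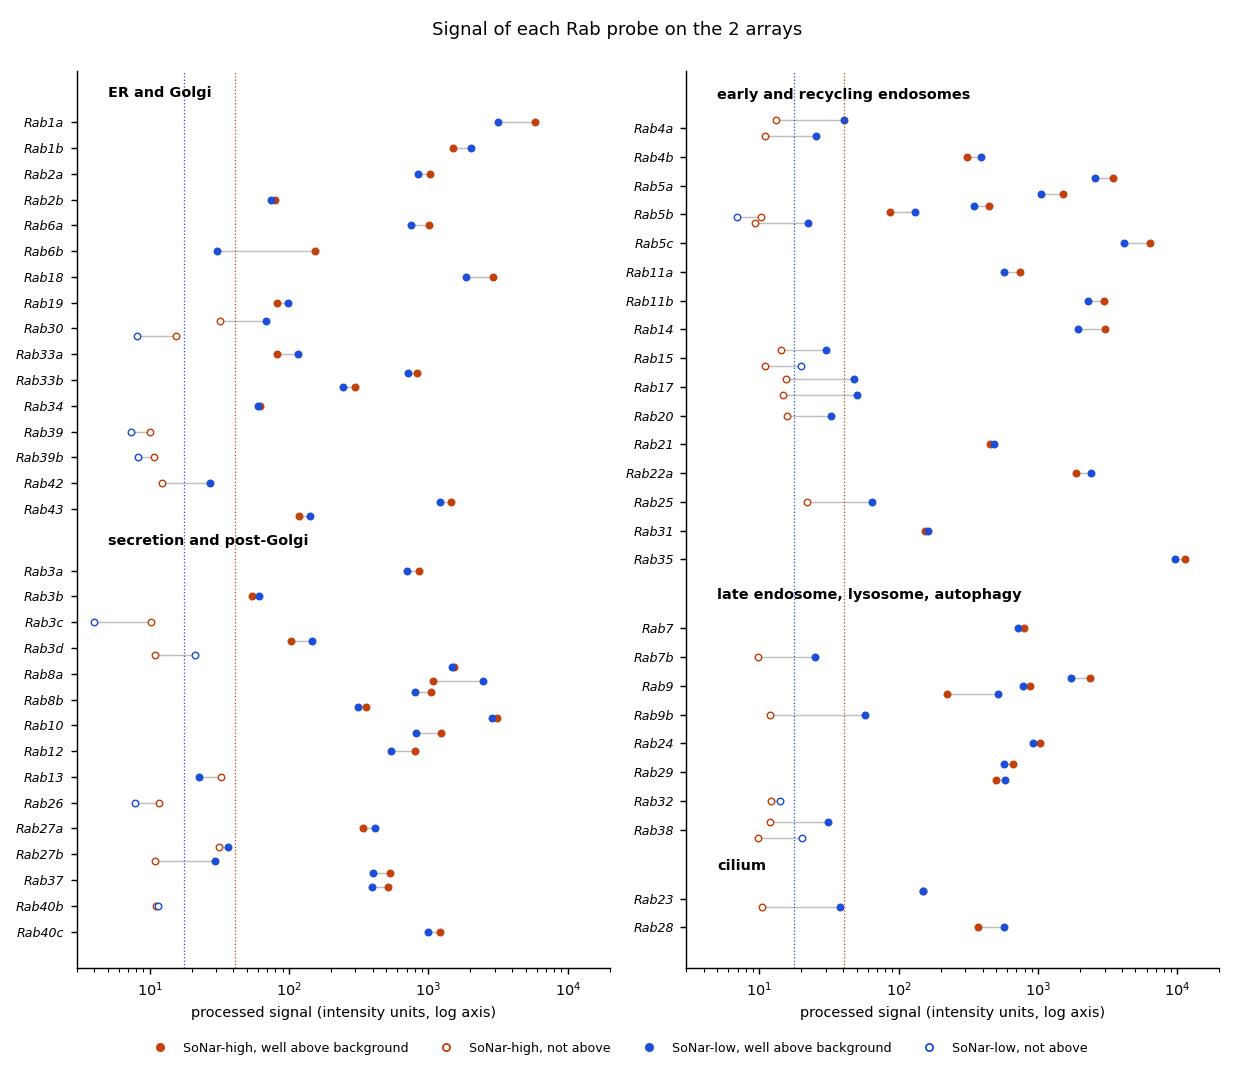
Processed signal (intensity units, log axis) of the 78 Rab probes on the SoNar-high (orange) and SoNar-low (blue) arrays, with a line joining both values of a probe, open symbols for probes not detected, and dotted lines at the lowest detected signal of each array (40.8 and 17.7 units). All SoNar-high symbols of the 12 genes detected in SoNar-low cells alone are open, and Rab6b has the widest gap among filled pairs.

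Rabs of the endoplasmic reticulum and the Golgi held both genes past 2-fold. Of 16 on the array 12 were measured, with a median of 0.36, and 9 lay above 0. Rab6b, a Golgi GTPase found mainly in neurons, gave 154 units on the SoNar-high array (software error 18.7) and 30.7 units (5.19) on the SoNar-low array by its 1 probe. Its difference was 2.53, a 5.77-fold higher scaled signal on the SoNar-high array, which ranked 5 of 10521 genes. Both signals exceeded the lowest detected one of their array, 40.8 and 17.7 units. Differences of this sign were more frequent among measured genes at that low level. Of 311 genes at or below the mean level of Rab6b, 56 (18.0%) were 2-fold or more higher and 0 were 2-fold or more lower. The filter shaped that split, since the lowest detected scaled signal was 0.0998 on the SoNar-high array and 0.0377 on the SoNar-low array. It left little room for a 2-fold lower value, so the split cannot be read as a trait of dim genes. The next gene, Rab1a, which acts in transport from the endoplasmic reticulum to the Golgi, gave 5849 units in SoNar-high and 3180 units in SoNar-low cells. Its difference was 1.08, just inside the 2-fold threshold, and lay between 0.72 and 0.91 under 6 of 11 alternatives: normexp correction, loess, quantile normalization, the series matrix, centring on the median gene, and the percentile over probes detected on both arrays. The first gene outside the threshold was Rab14, at 0.84.

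The other Golgi members lay closer together. Rab18, a GTPase of the endoplasmic reticulum and lipid droplets, gave 2892 and 1868 units (0.83), and Rab6a, which directs retrograde transport through the Golgi, gave 1019 and 751 units (0.64), in the order SoNar-high and SoNar-low as in all pairs below. Rab2a, a tethering GTPase between both organelles, stood at 0.48 and its paralogue Rab2b at 0.29. Rab33b, which binds the autophagy factor Atg16l1, stood at 0.43 with its 2 probes at 0.39 and 0.47. Rab34 was at 0.27, and Rab43 at 0.20 with probes at 0.46 and -0.07. Below 0 lay Rab19 (-0.08), Rab1b (1504 and 2008 units, -0.22) and Rab33a (82.3 and 117 units, -0.30). Rab19 and Rab33a stood above 0 under normexp correction (0.10 and 0.15), quantile normalization (0.35 and 0.09) and the series matrix (0.40 and 0.10), and all 3 did under median scaling, where Rab1b was at 0.35. Thus 1 of the 2 Rab1 genes was called and the other stood on the opposite side of 0.

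**Figure D2:**
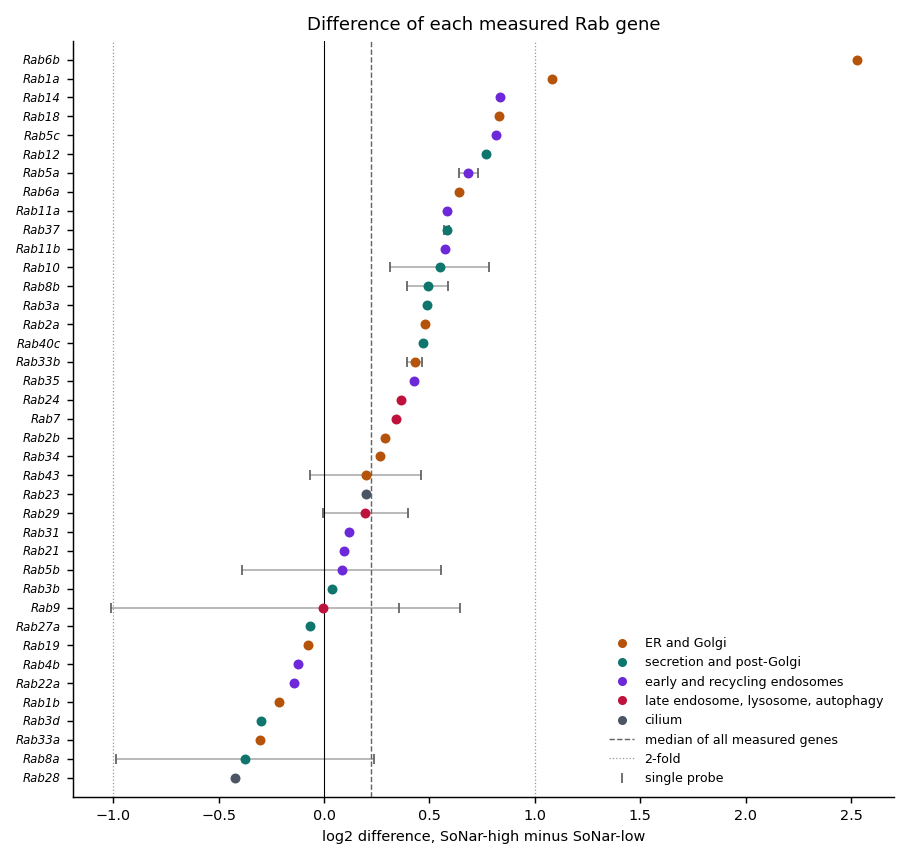
Log2 difference of the 39 measured Rab genes (circles, coloured by route), with ticks for single probes where a gene had several, a dashed line at the median of all measured genes (0.22) and dotted lines at 2-fold. Rab6b stands alone at 2.53, Rab1a lies just past 2-fold, and the rest spread between -0.42 and 0.84.

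Rabs of secretion and of transport from the Golgi to the surface had a median of 0.48 over 10 measured genes of 15, with 7 above 0 and none past 2-fold. Rab12, linked to endosomal and lysosomal traffic of receptors, was highest at 0.77 (805 and 543 units). Rab37, a GTPase of secretory granules, had 2 probes of like value (0.59 and 0.57), and Rab10, which carries vesicles to the plasma membrane, had probes at 0.78 and 0.31. Rab8b stood at 0.49 and Rab40c, part of a ubiquitin ligase, at 0.47. Rab3a, the synaptic vesicle Rab, gave 859 and 704 units (0.49), so it was detected on both arrays and close to the bulk of the family. Its relatives Rab3b (0.04) and Rab3d (-0.30), the latter a secretory granule Rab, stood lower. Rab3d turned to 0.03 under quantile normalization and 0.04 in the series matrix. Rab27a, which brings lytic granules to the membrane, was at -0.07, and at 0.06 under normexp correction. Rab8a, which drives exocytosis and cilium growth, had the lowest value of this route (-0.38) but its 2 probes disagreed. One gave 1520 and 1485 units (0.24) and the other 1075 and 2448 units (-0.99), so its direction depends on the probe.

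Rabs of early and recycling endosomes had a median of 0.43 over 11 measured genes of 16, with 9 above 0 and none past 2-fold. Rab14, which moves cargo between the Golgi and endosomes, gave 3020 and 1944 units (0.84). Rab5c gave 6337 and 4143 units (0.81) and Rab5a stood at 0.68 with probes at 0.64 and 0.73, and both drive fusion of early endosomes. The third isoform, Rab5b, stood at 0.08, with probes at 0.56 and -0.39 on either side of 0. Both slow-recycling Rabs had nearly the same value, Rab11a at 0.58 and Rab11b at 0.57. Rab35, which acts in fast recycling at the plasma membrane, gave 11287 and 9646 units (0.43). Rab31 (0.12), Rab21 (0.09), a regulator of integrin uptake, Rab4b (-0.12) and Rab22a (-0.14) lay under the median gene.

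Of the 8 late endosomal, lysosomal and autophagy Rabs, 4 were measured, all within 0.5 of the median gene. Rab7, which governs fusion of late endosomes with lysosomes, gave 788 and 716 units (0.34). Rab24, an autophagy Rab, was at 0.37, and Rab29, a Golgi and lysosome Rab that recruits the kinase Lrrk2, at 0.20 with probes at 0.40 and -0.005. Rab9, which returns receptors from late endosomes to the Golgi, averaged -0.004 over 3 probes that stood at 0.65, 0.35 and -1.01. Its mean near 0 thus covers 2 probes above 0 and 1 probe below. Of the cilium Rabs, Rab23, a brake on Hedgehog signalling, stood at 0.20 by the 1 of its 2 probes that was detected on both arrays, and Rab28 was the lowest measured member at -0.42 (370 and 570 units, 1.34-fold lower on the SoNar-high array). In all, 5 of the 10 Rab genes with several measured probes had probes on both sides of 0: Rab5b, Rab8a, Rab9, Rab29 and Rab43.

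The 18 members not measured on both arrays gave little. Detected in SoNar-low cells alone were Rab4a, Rab7b, Rab9b, Rab13, Rab15, Rab17, Rab20, Rab25, Rab27b, Rab30, Rab38 and Rab42. The SoNar-high array had its lowest detected signal at 40.8 units and the SoNar-low array at 17.7, so genes between those values could pass on the latter alone. Against the higher of the SoNar-high floor and the probe's own signal, Rab30, a Golgi Rab, was at least 1.46-fold higher on the SoNar-low array, the epithelial Rab25 at least 1.38-fold, Rab9b at least 1.23-fold and the epithelial Rab17 at least 1.04-fold. These bounds set the mean normalized signal of the SoNar-low array against that floor, and all 4 are short of 2-fold. Of 12 lung epithelial markers 7, like Rab25 and Rab17, were detected in SoNar-low cells alone (58.3%, against 26.4% of all genes). Of the 5 measured, 2 stood past 2-fold lower on the SoNar-high array (40%, against 4.39% of all genes). These were Scgb1a1 (46.4 and 528 units, -3.31), which had the lowest difference of all 10521 genes, and Sftpd (68.3 and 288 units, -1.87). The summed signal of the measured markers, most of it from Napsa and Lamp3, was 16119 units in SoNar-high and 16293 in SoNar-low cells, and the part of such cells in the Rab values was not tested. For the other 8 the bound was under 1 and no fold is given. Rab26, Rab32, Rab39, Rab39b, Rab3c and Rab40b were detected on neither array. When detection was set instead at 3 SD over the mean of negative controls, 46 Rab genes passed on both arrays, 5 in SoNar-low cells alone and 0 in SoNar-high cells alone. The shares over all genes are not given for this call.

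Paralogues were compared through their differences, since signals of different probes are not on a common scale. Of 25 pairs listed, 14 had both genes measured, with a median gap of 0.67 between their differences. Of these gaps 5 were at most the median SD between probes of a gene. That SD belongs to single values while a gap carries the spread of both genes, so more gaps may lie within probe spread. Genes such as Rab8a, Rab3a and Rab5a stand in several pairs, so the pairs are not independent. In 7 pairs both genes lay above 0, in 7 they lay on opposite sides, and in 0 both lay below. The largest gap was that of Rab6b over Rab6a, 1.89 or 3.70-fold, followed by Rab1a over Rab1b, 1.30 or 2.46-fold; no other pair reached 2-fold. Under normexp correction the first gap was 0.95, where Rab6b stood at 1.46, and the series matrix gave 3.02. The second lay between 1.15 and 1.30 under all settings. With 1 probe per gene, only normexp, quantile normalization, loess and the series matrix could move it, and these gave 1.15 to 1.28. Rab10 and Rab8b stood 0.92 and 0.87 above Rab8a, gaps that the disagreeing Rab8a probes limit. Rab3a stood 0.79 above Rab3d, Rab33b 0.73 above Rab33a, and Rab5c 0.73 above Rab5b. The smallest gaps were those of Rab11a and Rab11b (0.01), Rab5a and Rab5c (0.13) and Rab2a and Rab2b (0.19). In the 4 pairs Rab4, Rab7, Rab9 and Rab27 one paralogue was measured (Rab4b, Rab7, Rab9, Rab27a) and the other was detected in SoNar-low cells alone (Rab4a, Rab7b, Rab9b, Rab27b). The listed pairs of Rab11a with Rab25 and of Rab8a with Rab13 were split likewise, with Rab25 and Rab13 detected in SoNar-low cells alone.

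**Figure D3:**
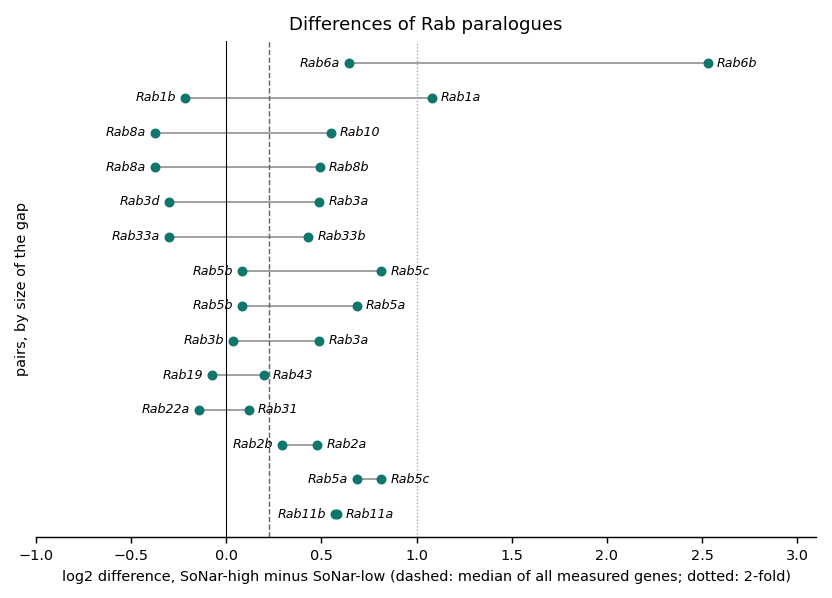
Log2 differences of both genes of the 14 paralogue pairs measured on both arrays, ordered by the size of the gap, with a dashed line at the median of all measured genes and a dotted line at 2-fold. The gaps run from 0.01 for Rab11a and Rab11b to 1.89 for Rab6a and Rab6b.

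The promoters of both pairs with the widest gaps are shown to set the paralogues side by side. These are the 250 bases before the annotated start, 5′ to 3′ on the gene's strand, from RefSeq on build GRCm38.p6, and they lie at chr9:103111824-103112073 (plus strand) for Rab6b, chr7:100607336-100607585 (plus) for Rab6a, chr11:20201162-20201411 (plus) for Rab1a and chr19:5106997-5107246 (minus) for Rab1b. Capitals mark the GC box (GGGCGG) and the CCAAT box (CCAAT), each searched on both strands; the E-box CACGTG, the cAMP response element TGACGTCA and the ETS site CCGGAAG were searched too and matched in none of the 4.
Rab6b: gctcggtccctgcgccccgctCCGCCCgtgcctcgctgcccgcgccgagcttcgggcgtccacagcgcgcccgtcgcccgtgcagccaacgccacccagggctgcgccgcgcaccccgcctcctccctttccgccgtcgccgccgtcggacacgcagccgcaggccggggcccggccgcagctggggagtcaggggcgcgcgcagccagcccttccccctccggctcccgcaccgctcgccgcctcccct
Rab6a: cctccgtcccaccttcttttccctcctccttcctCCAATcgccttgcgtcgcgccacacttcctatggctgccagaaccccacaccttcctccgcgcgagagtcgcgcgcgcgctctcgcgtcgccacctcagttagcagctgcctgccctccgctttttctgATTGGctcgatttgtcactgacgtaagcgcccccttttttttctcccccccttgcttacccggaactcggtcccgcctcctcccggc
Rab1a: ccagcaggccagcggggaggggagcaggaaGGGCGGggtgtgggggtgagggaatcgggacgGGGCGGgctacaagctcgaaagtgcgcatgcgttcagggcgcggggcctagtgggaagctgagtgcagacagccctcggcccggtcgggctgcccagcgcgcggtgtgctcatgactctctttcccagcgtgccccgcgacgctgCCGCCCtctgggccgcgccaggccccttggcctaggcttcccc
Rab1b: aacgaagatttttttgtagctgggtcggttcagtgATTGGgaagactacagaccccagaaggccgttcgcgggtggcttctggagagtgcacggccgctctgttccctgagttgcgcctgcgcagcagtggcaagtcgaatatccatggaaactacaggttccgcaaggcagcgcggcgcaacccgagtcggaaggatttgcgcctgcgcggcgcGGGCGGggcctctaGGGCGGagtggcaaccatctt
The Rab6b window is 80.8% G and C with 40 CpG, the Rab6a window 62.8% with 24. Rab6b held 1 GC box and no CCAAT box, and Rab6a held 2 CCAAT boxes and no GC box. Rab1a (72.4% G and C) held 3 GC boxes, and Rab1b (60.8%) held 2 GC boxes and 1 CCAAT box. Of 48 Rab genes with a promoter in that table, 33 (68.8%) held a GC box, against 32.9% of 27025 promoters of all genes and 57.7% of 8481 promoters of genes measured on both arrays. A CCAAT box stood in 22 (45.8%, against 34.5% and 37.1%), a CACGTG E-box in 4 (8.33%, against 6.05% and 8.95%), the cAMP response element in 2 (4.17%, against 1.62% and 2.89%) and the ETS site in 3 (6.25%, against 7.05% and 14.8%). The E-box genes were Rab5a, Rab20, Rab21 and Rab23, and those with the cAMP response element Rab5a and Rab25. The 48 include 12 genes not measured on both arrays, so the last share of each set has its like in the 36 measured Rab genes. Of these 36, 26 (72.2%) held a GC box, 18 (50%) a CCAAT box and 3 (8.33%) the E-box. The cAMP response element stood in 1 of them (2.78%) and the ETS site in 3 (8.33%). The windows of measured Rab genes were richer in G and C (median 61.8% over 36) than those of the other Rab genes (57.6% over 12), while measured genes of all kinds had a median of 59.6%. A match is a description of letters and not a site.

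Differences of the Rab genes went with their level. Across the 39 genes, whose probes share the same 2 arrays and their backgrounds, Spearman's rho of the difference with the mean scaled level was 0.41, and Pearson's r was 0.16. Over all 10521 genes rho was 0.31. Of the measured Rab genes 20 lay above the median level and 19 below. Those above it had a median difference of 0.52, beside 0.36 for all genes above it, and 16 of 20 lay above 0. Those below it had a median of 0.12, beside 0.06 for all genes below it, with 13 of 19 above 0. After a loess fit on the level the Rab median was 0.18 and that of all genes 0.05.

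**Figure D4:**
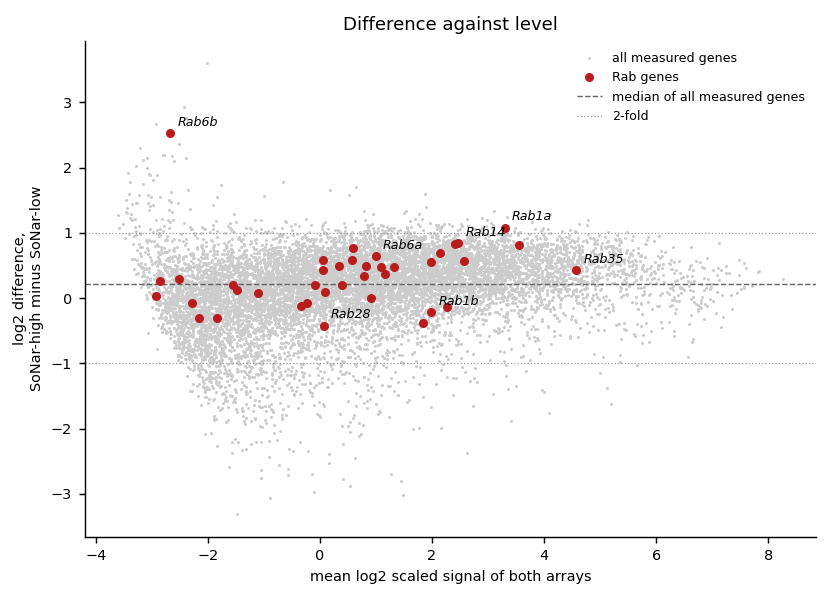
Log2 difference against the mean log2 scaled signal of both arrays for 10521 genes (grey) and the 39 Rab genes (red), with a dashed line at the median gene and dotted lines at 2-fold. Most Rab genes lie inside the grey band and rise with it towards brighter signals, while Rab6b lies among dim genes above it.

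The brain list of Rabs did not share the value of Rab6b. Of 10 Rabs found mainly in brain, 4 were measured: besides Rab6b, Rab3a stood at 0.49, Rab3b at 0.04 and Rab33a at -0.30. Rab9b and Rab15 were detected in SoNar-low cells alone, and Rab3c, Rab26, Rab39b and Rab40b on neither. Without the 10 genes the median Rab difference was again 0.34. Neuronal markers moved with Rab6b in part. Of 31 such markers, 16 were measured, with a median of 0.51 and 11 above 0. Past 2-fold higher stood 4 of the 16, or 25.0% against 2.40% of all genes (Rtn1 2.93, Stmn3 1.51, Thy1 1.37, Syn1 1.19), and past 2-fold lower 1 (Snap25 -1.04). Those 4 were dim on the SoNar-low array, from 25.4 units (Stmn3) to 58.5 units (Thy1). Among them Thy1 is not particular to neurons, and which cells gave these signals was not tested. The 18.0% among genes at or below the level of Rab6b is no base for the list, which holds far brighter genes such as Cplx2 (19238 and 14196 units). A share of all genes at like levels was not computed. A further marker, Syt1, was detected in SoNar-high cells alone and 8 in SoNar-low cells alone (25.8%, against 26.4% of all genes), while 6 (Chgb, Gad1, Gap43, Nefl, Nefm, Stmn2) were on neither. The summed signal of the measured neuronal probes was 72129 units in SoNar-high and 54712 in SoNar-low cells, of which Cplx2 made up the largest part. Of 7 measured glial markers 2 were at least 2-fold higher (28.6%, against 2.40% of all genes), among them Mobp (1.74), and 0 lower (against 4.39%). These glial markers had a median of 0.31 and a summed signal of 3081 and 3450 units. Their part in the Rab6b value was not tested.

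Markers of other marrow cells are given beside the Rabs of secretory granules, and most but not all of those measured lay below 0. Of 12 measured neutrophil markers 10 lay below 0 (median -0.53), with a summed signal of 46396 and 66685 units. Of 7 measured T and NK cell markers 5 lay below 0 (median -0.93), with summed signals of 5562 and 5566 units that were nearly equal, and Lck stood at 1.00 and Cd2 at 0.68. Of 5 measured erythroid markers 4 lay below 0 (median -0.42), while Hemgn stood at 0.89 and made up most of a summed signal of 24071 and 16791 units. Of 4 measured monocyte and macrophage markers 3 lay below 0 (median -0.70). Rab27a and Rab3d, Rabs of granules in such cells, stood at -0.07 and -0.30 with signs that turned as given above. Rab37, also a Rab of secretory granules, stood on the other side at 0.58, with probes at 0.59 and 0.57. Its values lay between 0.29 and 1.15 under the settings that measured it. Of 11 platelet markers 1 was measured, Itgb3 at 0.63, and 6 (54.5%, against 26.4% of all genes) were detected in SoNar-low cells alone. Rab27b, the platelet granule Rab, was too, though 1 of its 2 probes had nearly the same scaled signal on both arrays (31.5 and 36.2 units) and the other gave 11.01 and 29.3 units. The part of these cells in the Rab values was not tested.

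The genes that run the Rab cycle leaned above 0 about as often as all genes, and those past 2-fold stood on both sides. Of 129 measured regulators and effectors 93 lay above 0 (72.1%, against 66.9% of all genes and 74.4% of the Rab genes). All 10 genes listed as the core of prenylation and membrane delivery were measured, with a median of 0.28. The list includes Ppp1cc (0.16), a phosphatase subunit gene not particular to these steps. Of the 10, 7 lay above 0, with 0 past 2-fold higher and 1 past 2-fold lower. That 1 was Rabif, which binds Rabs free of nucleotide, with 108 and 390 units by 1 probe (-1.65, 3.14-fold lower on the SoNar-high array). Rabac1, a membrane protein that accepts Rabs from the dissociation inhibitor, was highest at 0.75, with probes at 0.30 and 1.20. The escort protein genes Chml and Chm, which present new Rabs to the prenylating enzyme and are named here after their values were seen, stood at 0.46 and -0.89. Rabggta and Rabggtb, the subunits of the enzyme that adds the prenyl groups, stood at 0.003 and 0.60.

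Of 46 exchange factor genes 40 were measured (median 0.33, 30 above 0), with 2 at least 2-fold higher and 1 lower. Dennd1c (462 and 246 units, 1.11) and Dennd1a (233 and 539 units, -1.005), both exchange factors of Rab35, stood past 2-fold on opposite sides, and C9orf72 was at 1.07. Of 37 GTPase-activating protein genes 27 were measured (median 0.36, 20 above 0), with 1 higher and 2 lower, and again paralogues parted: Tbc1d22a stood at 1.05, Tbc1d22b at -1.29, and Tbc1d12, which was lowest, at -1.47. Of 77 effector genes 53 were measured (median 0.21, 36 above 0), with 1 higher, the vesicle motor gene Myo5a (817 and 422 units, 1.16), and 2 lower, Rab11fip2, which links Rab11 to myosin V (57.9 and 166 units, -1.32), and Osbpl1a, a Rab7 effector (56.2 and 137 units, -1.08). A further 19 effector genes were detected in SoNar-low cells alone (24.7%, against 26.4% of all genes). In all, 4 of 129 measured regulators and effectors (3.101%) stood past 2-fold higher and 6 (4.65%) past 2-fold lower, near the 2.40% and 4.39% of all genes. Each of these 10 rested on 1 measured probe.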

How the data were processed

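Per the labels' protocols, Cy3-labelled cRNA was made from the RNA of each population, and each was hybridised to its own Agilent array. Scanner output, as deposited, gives spot intensity values that the scanner software (Agilent Feature Extraction 11.0.1.1 per the file headers, 9.1 per the submitters' processing notes) had background-subtracted but not scaled between arrays. The authors also deposited a matrix of log2 values with a median of 5.90 on both arrays and nearly the rank order of the scanner signals (Spearman's rho 1.000 and 0.9998). Higher matrix values stood for higher scanner signals, but small differences could turn sign between both sources, and how they were centred is not given in the sources used here.

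Left out were control spots and those the software marked as non-uniform or as population outliers, spots of a probe were averaged as log2 intensity, and each array's 75th percentile over 39085 probes was subtracted. Array accessions were matched without versions to the RefSeq gene table of GRCm38.p6, for names only, which named 27115 probes. A gene was the mean of its probes called well above background in both populations. All Rab genes may be named, and of each other list its extremes and its members past 2-fold. Chm, Chml, Rabggta, Rabggtb, Ppp1cc, Cd2, Napsa and Cplx2 were named outside this rule, as were markers given by their detection alone. The members and lists were chosen with earlier results of these data known. RefSeq promoters were matched by symbol, and the first start listed was used. The gene step was tested on simulated data with less noise than probes of one gene show here and with detection calls held fixed. That checks the arithmetic and not the 2-fold calls on these arrays. No Rab spot was saturated. The arrays were scanned on separate days per the file headers, so effects of scan day and of population cannot be told apart here. The alternatives were another background correction (normexp on the median spot signal), other scalings, probe filters and thresholds. Tools were limma 3.58.1 in R 4.3.3, and matplotlib 3.10.9, numpy 2.4.6, pandas 2.3.3, scipy 1.17.1 and statsmodels 0.14.6 in Python 3.11.15.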

Additional observations from a re-analysis of the deposited data

How the results depend on the processing

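With 1 array per population there was no replicate to leave out, and no paired analysis was possible because each group holds 1 array. The median Rab difference of 0.34 became 0.91 with median scaling, 0.044 with the 75th percentile over probes detected on both arrays, 0.18 with loess on the level (span 0.3), 0.49 over the brighter 50% of probes and 0.12 with centring on the median gene. It stayed between 0.20 and 0.40 under the other 7, the lowest without a filter on dim probes. The count of 2 of 39 Rab genes at least 2-fold higher became 16 with median scaling, where 32.1% of all genes were. With no filter on dim probes it was 3 of 57 Rab genes, against 9.14% of all genes. It became 8 at 1.5-fold (20.4% of all genes) and 1 at 3-fold (0.295%). It was also 1 with normexp correction (offset 50), loess, quantile normalization, the series matrix, centring on the median gene, the percentile over detected probes and the brighter 50% of probes; the last of these left Rab1a, since the Rab6b probe was too dim for it, and the others left Rab6b. The count of 0 at least 2-fold lower became 6 of 57 with no filter on dim probes, against 12.3% of all genes. These were Rab4a, Rab7b, Rab9b, Rab17, Rab25 and Rab38, none of them detected in SoNar-high cells. With outlier spots kept the count was 1 of 40, against 4.68% (Rab3c, by spots with that flag). Without the filter Rab3c instead joined those past 2-fold higher, by a probe detected on neither array, so it has no settled direction. The Rab6b gap over Rab6a became 0.95 with normexp correction. The 12 genes detected in SoNar-low cells alone became 5 with the 3 SD call and 17 when probes were counted. Over all genes the split past 2-fold, 35.4% higher in the text, ranged from 6.67% to 96.0% with the scaling (scaling over detected probes and median scaling). Of the 39 measured Rab genes 19 turned sign under at least 1 alternative. The lowest detected signals, 40.8 and 17.7 units, limit what can be said of dim members.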
